A study of Mus musculus with 9 samples.

Results

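The Notch receptors, ligands and targets comprised 10 genes chosen by symbol, Notch1 to Notch4, Jag1, Jag2, Dll1, Hes1, Hey1 and Heyl. The deposited expression table of 11063 genes held a row for 8 of them, namely 3 receptors, 2 ligands and 3 targets. Notch4 and Jag2 were not analysed here. Expression had been profiled to look for a signal that non-epithelial cells of the mammary gland send to stem cells under calorie restriction (CR). Non-epithelial cells, sorted as Lin-CD49fneg CD24neg from #4 mammary glands (FVB/N strain, females), came from 4 ad libitum-fed mice, numbered 2 to 5, and 5 CR mice, numbered 1 to 5. The mice were 6 weeks old at the start, and the labels name no transgene or mutant allele. CR lasted 8 weeks and, according to the submitters' notes, supplied 65% of the food eaten by the ad libitum-fed counterparts, while the methods of the study state another share and add vitamins and minerals. Each library was made from 1 mouse, with 15000 cells and 30 ng of RNA, by a method that counts molecules at the 3′ ends of transcripts.

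Notch receptors are membrane proteins that are cut after binding a ligand of the Delta-like or Jagged families on a neighbouring cell. The freed intracellular domain enters the nucleus, joins the DNA-binding protein RBPJ and switches on genes of the Hes and Hey families, which encode transcriptional repressors. In the mammary gland the pathway is known for its part in the choice of luminal fate by epithelial progenitors, and it also acts in T cells, in blood vessels and in the mural cells that surround them.

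Of the members, Hes1 rose and Notch1 fell in CR cells, each about as much as the other in relative terms. Hes1 went from 75.5 ± 11.4 normalized counts (SD, n = 4) to 169 ± 34.4 (SD, n = 5), which was 2.23-fold higher. Notch1 went from 46.1 ± 14.7 (SD, n = 4) to 21.4 ± 7.57 (SD, n = 5), which was 2.15-fold lower. Normalized counts are molecule counts divided by a size factor for each library. CR was set against ad libitum feeding by limma on log2(normalized count + 1), a scale on which the change of a gene with few counts is understated, for the 6815 genes with 10 or more normalized counts in 4 or more libraries. A gene was called at a Benjamini-Hochberg adjusted p of at most 0.05. Only 3 members passed this filter, Notch1, Notch3 and Hes1, and 2 of these were called, beside 17.1% of all tested genes. The call of Hes1 stands beside 7.98% of tested genes that were called higher, and the call of Notch1 beside 9.14% that were called lower. Both also met the criteria of a 1.5-fold change and 30 counts in at least 1 library, which 15.7% of tested genes met. The other 5 members lay under the filter, and their values come from the fit without it.

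**Figure D1:**
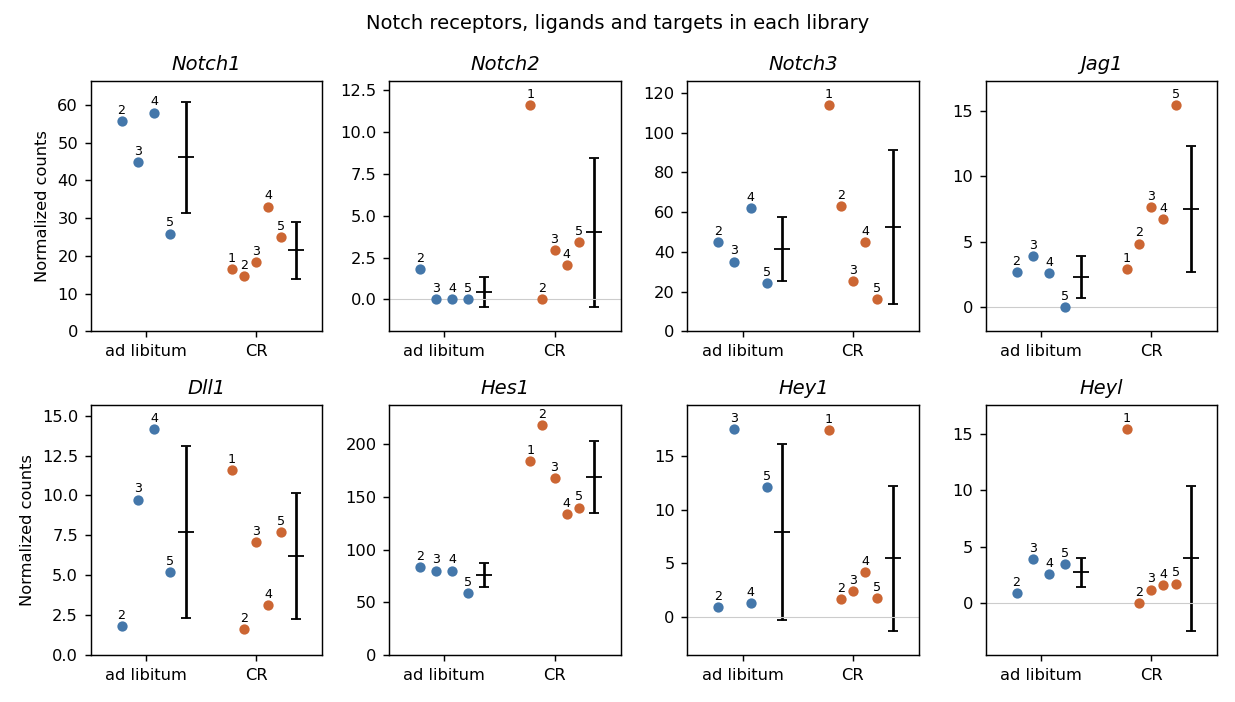
Normalized counts (y axis, linear, a scale per gene) of the 8 members in each library, with ad libitum-fed mice in blue, CR mice in orange, the mouse number above each point, and the mean with its SD beside each diet. Every CR point of Hes1 lies above every ad libitum point, and the Notch1 points of CR mice lie at 14.6 to 33.0 against 25.9 to 58.0 for ad libitum-fed mice.

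Facts of the libraries bear on all of these values. The whole counts recovered from the normalized values totalled 382877 to 817030 per ad libitum library (median 480190) and 785301 to 1485963 per CR library (median 974109), so that the CR libraries were the deeper ones. Each count corresponded to 0.898 to 1.95 normalized counts under ad libitum feeding and to 0.516 to 0.966 under CR. Where no count was seen, up to 3 remain possible (2.69 to 5.85 normalized counts under ad libitum feeding and 1.55 to 2.90 under CR), and these limits cover counting error only. No library duplicated another of its diet. The labels give no batch. Markers were read as summed normalized counts, from lists drawn up with results of these data already known. Fibroblast markers summed to 7868 to 14064 in ad libitum-fed and 12451 to 16582 in CR mice. The 5 epithelial markers with a row summed to only 17.1 to 34.5 and 16.4 to 36.9 in a population labelled non-epithelial, and the others of the 19 on that list were not analysed here. Endothelial markers, although the sort was preceded by a magnetic depletion meant to remove endothelial cells, summed to 213 to 370 and 162 to 351. By the methods of the study, that depletion also took out part of the hematopoietic cells and of the fibroblasts.

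Promoters of the called genes were read from the RefSeq tables (build GRCm38.p6), as windows of 300 bases around the start site, to show what the letters around the start of the called receptor are. The tables gave a promoter for 5 of the 8 members, with none for Hes1, Hey1 or Heyl. Searched on both strands were TGGGAA, the core bound by RBPJ, CACNAG, the N box, and CACGTG, an E box, the last 2 being letters that proteins of the Hes and Hey families can bind. The Notch1 window lies at chr2:26503773-26504072 on the minus strand, inside the span of the gene (2:26457903-26516663), and holds 3 N boxes, shown in capitals, at -108, -3 and -1 from the start site. The last 2 overlap each other on opposite strands. It holds no TGGGAA and no CACGTG.
Notch1 promoter: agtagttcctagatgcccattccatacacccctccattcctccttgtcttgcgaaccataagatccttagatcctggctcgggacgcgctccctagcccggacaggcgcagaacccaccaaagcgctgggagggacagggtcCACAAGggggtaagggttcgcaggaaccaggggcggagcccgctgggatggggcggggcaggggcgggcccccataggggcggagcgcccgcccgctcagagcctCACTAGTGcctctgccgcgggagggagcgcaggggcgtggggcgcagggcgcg
For contrast, the promoter of Lfng is shown, a pathway gene described below that was chosen for display after its values were seen. Its window, chr5:140607091-140607390 on the plus strand, holds TGGGAA on either strand at -135 and -108, an E box at -112 that overlaps the second of these, and an N box at -181, all in capitals.
Lfng promoter: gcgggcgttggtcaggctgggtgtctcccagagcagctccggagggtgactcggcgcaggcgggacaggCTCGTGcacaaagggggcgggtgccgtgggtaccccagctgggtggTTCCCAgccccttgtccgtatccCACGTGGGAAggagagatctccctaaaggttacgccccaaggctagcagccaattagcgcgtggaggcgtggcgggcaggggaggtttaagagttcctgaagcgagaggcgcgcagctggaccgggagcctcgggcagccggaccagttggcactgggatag
Some genes have several start sites and so several windows. Among 32851 windows of this length, 25.6% held TGGGAA, 42.5% held CACNAG and 7.15% held CACGTG. None of the 6 windows of the 5 members held TGGGAA, and 19 of the 65 windows (29.2%) of 47 other pathway genes did. These matches describe letters in the window and not sites of binding.

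Among the receptors, Notch1 (chromosome 2, GRCm38) measured 55.7, 44.8, 58.0 and 25.9 normalized counts in mice 2 to 5 fed ad libitum and 16.4, 14.6, 18.2, 33.0 and 24.9 in CR mice 1 to 5. The diets overlapped, as ad libitum-fed mouse 5 lay below CR mouse 4, and the other 4 CR mice lay below all ad libitum-fed mice. Its log2 fold change was -1.07 (standard error 0.32, 95% interval -1.74 to -0.39, adjusted p = 0.0279, limma), and the exact two-sided permutation p over all assignments of the 9 mice was 0.0317. Notch1 is the receptor that commits lymphoid progenitors to the T cell lineage. The call was lost, with adjusted p of 0.0568 to 0.0922, when ad libitum-fed mouse 2, 3 or 4 or CR mouse 1, 2 or 3 was left out, and it held in 3 of 9 such fits. The fold change stayed between -1.32 and -0.94 across them, with unadjusted p of at most 0.0170. The last 1000 bases of Notch1 are overlapped on the other strand by 0610009E02Rik and Gm13568, and whether the counting used strand is not given in the sources used here, so that reads of these genes cannot be told apart from those of Notch1.

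Markers of T cells moved with Notch1. All 17 T cell markers tested, of 22 listed and 18 with a row, fell in CR cells. Their list summed to 2024 to 3572 normalized counts in ad libitum-fed and to 178 to 316 in CR mice. Lat, the adaptor behind the T cell receptor, fell from 580 ± 148 (SD, n = 4) to 39.5 ± 11.4 (SD, n = 5), and Lck, the kinase that starts signaling by that receptor, from 325 ± 161 to 28.7 ± 11.2. Markers of NK cells went from 91.4 to 276 down to 10.3 to 26.7, those of B cells from 29.2 to 58.6 down to 0.81 to 10.3, and those of mast cells from 357 to 632 down to 29.9 to 137. Markers of macrophages and monocytes overlapped between the diets, at 178 to 436 under ad libitum feeding and 73.8 to 359 under CR. Of 5 tested on that list, 2 fell and 3 did not pass. The part of these cells in the Notch1 result was not tested. In such bulk samples fewer cells of a type and less RNA per cell cannot be told apart.

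Notch3, the receptor of pericytes and vascular smooth muscle, stood at 44.9, 35.1, 61.9 and 24.1 normalized counts under ad libitum feeding (mice 2 to 5) and at 114, 63.0, 25.3, 44.9 and 16.3 in CR mice 1 to 5. CR mouse 1 was highest and CR mouse 5 lowest of all 9, so that the CR mice enclosed the ad libitum range. Its log2 fold change was 0.11 (standard error 0.43, 95% interval -0.80 to 1.02, adjusted p = 0.893, limma). It turned to -0.30 when libraries were scaled to fibroblast markers. On the other strand Gm17276 overlaps the last 1000 bases of Notch3, so its reads cannot be told apart either, as for Notch1. Markers of pericytes and smooth muscle summed to 793 and 746 in CR mice 1 and 2, to 279 to 445 in the other CR mice and to 255 to 298 in ad libitum-fed mice. Tagln, an actin-binding protein of smooth muscle, rose from 47.6 ± 6.04 (SD, n = 4) to 141 ± 76.1 (SD, n = 5), while Des, the muscle intermediate filament protein, was at 85.3 ± 26.9 and 151 ± 99.5 (adjusted p = 0.408, limma). Whether these cells set the order of the Notch3 values was not tested.

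Notch2, a receptor widely used outside the nervous system, was near its limit of detection. It had 2 counts in all under ad libitum feeding, both in mouse 2, and 25 under CR, with 0 in CR mouse 2. In normalized counts these were 1.80, 0, 0 and 0 against 11.6, 0, 2.94, 2.06 and 3.43. The pooled rate per count sequenced was 4.93 times as high in CR cells, with a 95% interval of 1.23 to 43.0 that covers counting error only. Over mice the log2 fold change of 1.51 did not pass (95% interval 0.01 to 3.01, adjusted p = 0.197, limma without the filter), and the exact permutation p was 0.0714.

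The receptors were also compared within libraries, by the ratio of a pair of genes with 1 added to each value. Such a ratio is nearly free of how the library is scaled only where both genes lie well above 0. Notch2 lay near 0, and with 0.5 or 4 added instead, the Notch1 to Notch2 difference given next was -3.08 or -1.69. The log2 ratio of Notch1 to Notch2 went from 5.12 ± 0.70 (SD, n = 4) to 2.55 ± 1.35 (SD, n = 5), a difference of -2.57. Its exact two-sided permutation p was 0.0159, and 0.111 after Benjamini-Hochberg adjustment over the 7 pairs computed within receptors, ligands and targets. The ratio of Notch1 to Notch3 ran from -0.09 to 0.35 in ad libitum-fed mice and from -2.72 to 0.58 in CR mice, and its difference of -1.18 gave an exact permutation p of 0.151. After adjustment no shift between these receptors was shown. The adjustment could hardly show one, as a single pair at the smallest exact permutation p of 4 against 5 mice (0.00794) would still miss 0.05. Without CR mouse 5 the Notch1 to Notch3 difference was -1.57 (exact permutation p = 0.0286), and without CR mouse 2 that of Notch2 to Notch3 went from 1.40 (p = 0.143, exact permutation) to 2.01 (p = 0.0286), all unadjusted. This p of 0.0286 is the smallest that 4 against 4 mice can give. With any other library left out, the exact permutation p was 0.171 to 0.214 for Notch1 to Notch3 and 0.161 to 0.321 for Notch2 to Notch3.

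Both ligands had few counts. Jag1, a ligand of the Jagged family that endothelial and stromal cells use, stood at 2.69, 3.90, 2.58 and 0 normalized counts under ad libitum feeding (mice 2 to 5) and at 2.90, 4.85, 7.64, 6.71 and 15.4 in CR mice 1 to 5. In CR mice 2 to 5 it was above all ad libitum-fed mice, and CR mouse 1 lay within their range. Its log2 fold change was 1.42 (95% interval 0.11 to 2.73) with an exact permutation p of 0.0317, but the adjusted p of 0.159 (limma without the filter) did not pass. These values rest on 7 counts in all under ad libitum feeding and 53 under CR.

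Dll1, a ligand of the Delta-like family, stood at 1.80, 9.74, 14.2 and 5.17 normalized counts under ad libitum feeding (mice 2 to 5) and at 11.6, 1.62, 7.06, 3.10 and 7.72 in CR mice 1 to 5. The diets overlapped over almost their whole range. Its log2 fold change was -0.22 (95% interval -1.50 to 1.06, adjusted p = 0.871, limma without the filter), so that neither a fall nor a rise of about 2-fold is outside the interval. The log2 ratio of Jag1 to Dll1 was -1.36 ± 1.33 (SD, n = 4) and 0.28 ± 1.17 (SD, n = 5), and the difference of 1.64 gave an exact permutation p of 0.103, or 0.213 after adjustment.

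Of the targets, Hes1 (chr16:30064384-30067796, plus strand) was the member with the smallest p. Hes1 encodes a helix-loop-helix repressor that keeps progenitors of several tissues from differentiating, and it also responds to signals other than Notch. It stood at 83.5, 79.9, 79.9 and 58.6 normalized counts under ad libitum feeding (mice 2 to 5) and at 184, 218, 168, 134 and 140 in CR mice 1 to 5. The lowest CR mouse lay above the highest ad libitum-fed mouse, a separation that 16.9% of tested genes showed in either direction. The fitted change on the log2 scale was 1.14 (standard error 0.21, 95% interval 0.71 to 1.57, adjusted p = 0.000769, limma), and the exact two-sided permutation p of 0.00794 is the smallest that 4 against 5 mice can give. A change of greater size was found in 12.7% of tested genes. The call held with each library left out in turn, with fold changes of 1.02 to 1.22. It was lost when libraries were scaled to fibroblast markers (0.73, adjusted p = 0.0837, limma). That scaling moved the median of all genes by -0.40, and relative to this median the change was 1.07 before and 1.06 after it. Scaling a library moves all its genes nearly alike, so these values could hardly differ and do not bear on the lost call.

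Because the CR libraries were deeper, the counts were also drawn down at random to 382877 per library. Hes1 then had 30 to 46 counts under ad libitum feeding and 62 to 122 under CR, with a fold change on the log2 scale of 1.02 (adjusted p = 0.00583, limma). Notch1 had 15 to 29 and 7 to 15, and -1.16 (adjusted p = 0.0312, limma). Both calls were kept at equal depth.

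**Figure D2:**
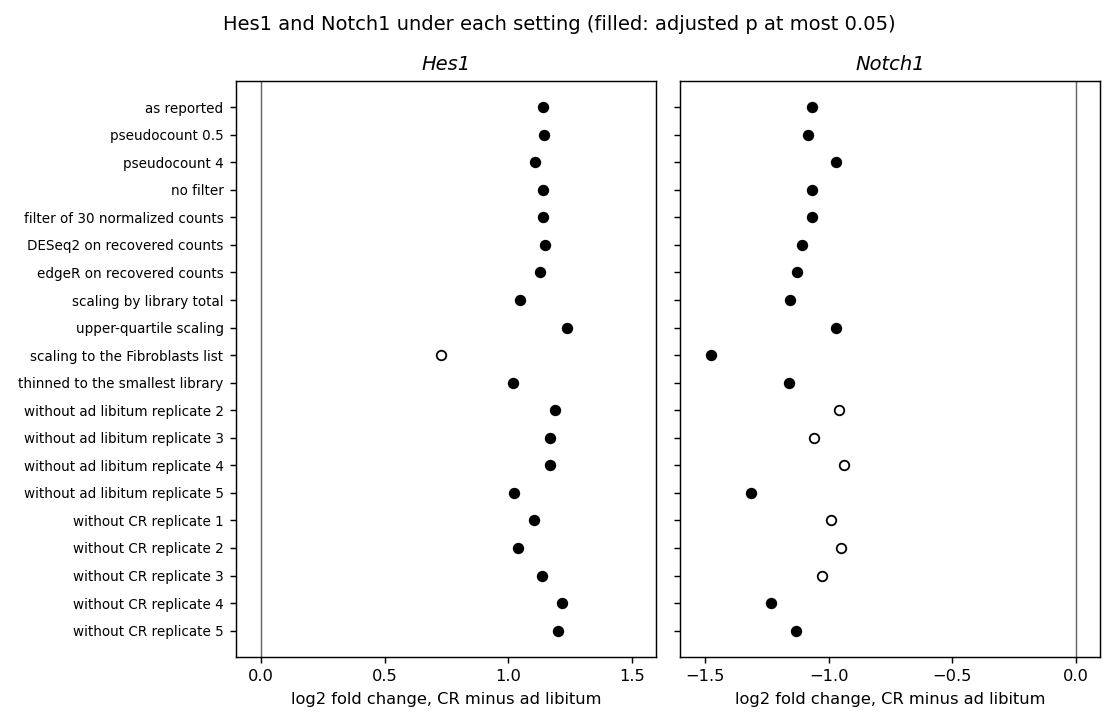
The log2 fold change (x axis, CR minus ad libitum) of Hes1 and Notch1 under the reported settings and the settings named at the left, including each library left out in turn (rows). Filled points have an adjusted p of at most 0.05, open points a larger one, and the open points are the fibroblast scaling for Hes1 and 6 of the 9 left-out libraries for Notch1. The block on the mouse number, in which Notch1 also lost its call (adjusted p = 0.0783, limma), is not drawn.

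Immediate early genes, which cells switch on within minutes of a stimulus, moved with Hes1. Of 20 listed and tested, 11 rose and none fell. Their sums were 10244 to 11586 normalized counts in ad libitum-fed and 15877 to 23279 in CR mice, and CR mice 2 and 1, which had the highest Hes1 values, also had the highest sums. Egr1, a transcription factor of this class, rose from 1065 ± 106 (SD, n = 4) to 2853 ± 727 (SD, n = 5), and Dusp1, a MAP kinase phosphatase, was at 1641 ± 144 and 2080 ± 229 (adjusted p = 0.117, limma). Of 9 heat shock genes 3 rose, with sums of 7560 to 10168 and 8419 to 21967. Of 18 fibroblast markers tested 6 rose and 1 fell, with Dcn, a matrix proteoglycan, going from 3729 ± 759 to 5983 ± 462. CR mice 1 and 2 were also highest on the pericyte and smooth muscle list, at 793 and 746. The part of any of these in the Hes1 result was not tested.

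Hey1 and Heyl, related repressors that are prominent in vessels and their mural cells, did not pass. Hey1 stood at 0.90, 17.5, 1.29 and 12.1 normalized counts under ad libitum feeding (mice 2 to 5) and at 17.4, 1.62, 2.35, 4.13 and 1.72 in CR mice 1 to 5. Heyl was at 0.90, 3.90, 2.58 and 3.45 and at 15.5, 0, 1.18, 1.55 and 1.72. CR mouse 1 was the high one for both genes, while ad libitum-fed mice 3 and 5 were high for Hey1 alone. CR mouse 1 also had the highest Notch3 value and the highest Notch2 value.

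The log2 fold change of Hey1 was -0.28 (95% interval -1.83 to 1.26, adjusted p = 0.862, limma without the filter) on 18 and 34 counts in all. That of Heyl was -0.21 (95% interval -1.72 to 1.30, adjusted p = 0.897) on 7 and 23 counts, although its mean was 1.47-fold higher in CR mice, which rests on CR mouse 1. Neither sign was stable, since Hey1 turned to 0.28 without ad libitum-fed mouse 3, and Heyl to 0.19 without CR mouse 2 and to 0.57 with DESeq2. These intervals leave room for changes larger than that of Hes1 in either direction. Within libraries, the log2 ratio of Hes1 to Hey1 differed by 1.42 (exact permutation p = 0.183) and that of Hes1 to Heyl by 1.35 (exact permutation p = 0.167), both 0.213 after adjustment. Hes1 was thus not shown to have changed apart from these related genes, although a single pair alone could not pass this adjustment with so few mice. Without CR mouse 1 the Hes1 to Heyl difference was 1.93 (exact permutation p = 0.0286, unadjusted), and with any other library left out that p was 0.125 to 0.343. The ratio of Hey1 to Heyl differed by -0.07 (exact permutation p = 0.905).

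Hes1 and Notch1 moved in opposite directions, and the ratio of Hes1 to Notch1, computed after these values were seen and given without a test, ran from 1.38 to 2.27 in ad libitum-fed mice and from 4.05 to 15.0 in CR mice.

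**Figure D3:**
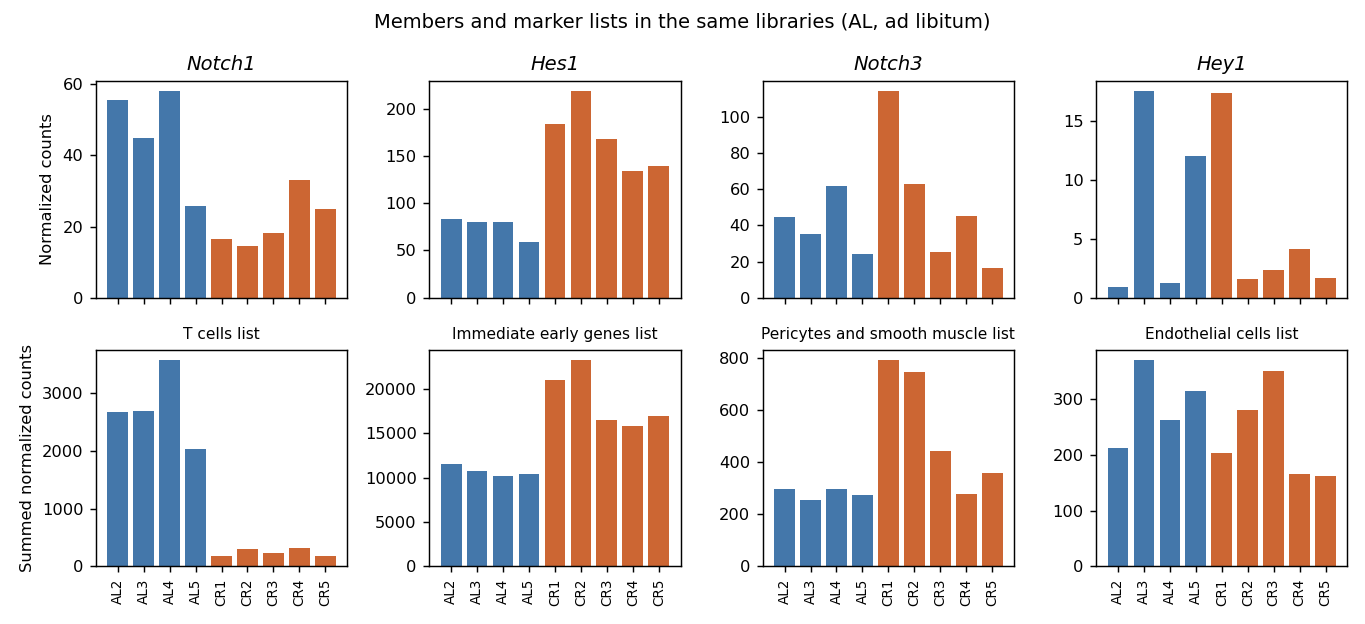
Normalized counts of Notch1, Hes1, Notch3 and Hey1 (upper row, y axis from 0) above the summed normalized counts of a marker list (lower row) in the same 9 libraries (x axis, AL for ad libitum-fed mice in blue, CR in orange). The T cell list stands at 2024 to 3572 in ad libitum-fed mice and at 178 to 316 in CR mice, and the pericyte and smooth muscle list is highest in CR mice 1 and 2, as Notch3 is.

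The genes whose values over the 9 libraries were most like those of the called members were found by the root mean square difference of their standardized log2 values, in SD units, among tested genes with a mean of at least 50 normalized counts. For Hes1 they were Atf3 (0.213), a transcription factor of the stress response, Id3 (0.213), an inhibitor of helix-loop-helix factors, and C1s1 (0.254), a complement protease, against a median of 1.22 over 2258 genes. For Notch1 they were Gm6251 (0.332), Evl (0.340), a regulator of actin growth, and Pfn1 (0.340), an actin-binding protein, against a median of 1.45 over 2259 genes. This likeness includes the difference between the diets and was not tested.

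Of the other genes of the pathway, 77 were listed, 58 had a row and 42 were tested. In CR cells 4 rose and 3 fell, beside 7.98% and 9.14% of all tested genes, and 35 did not pass. Their median log2 fold change was 0.01, against 0.07 over all tested genes. The count of higher genes depended on single libraries. It was 0 without CR mouse 2, 1 without CR mouse 1 or ad libitum-fed mouse 4, and 2 without CR mouse 3 or 5, and it was 0 both at equal depth and under the fibroblast scaling. The count of lower genes was 5 without ad libitum-fed mouse 5 and also 5 under the fibroblast scaling.

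**Figure D4:**
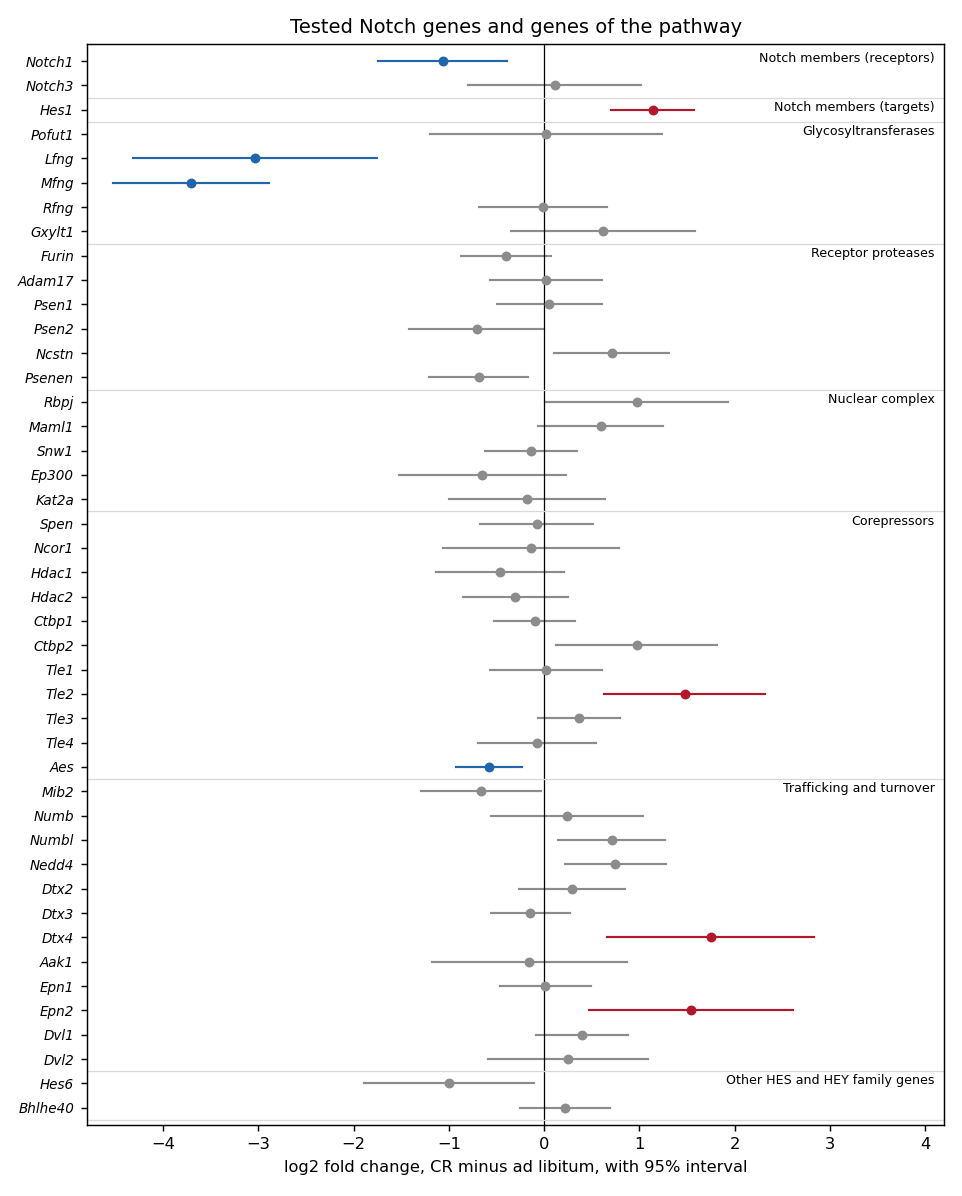
The log2 fold change (x axis, CR minus ad libitum) with its 95% interval for the 3 tested members and the tested genes of the pathway, 1 corepressor left out, grouped by role (rows). Genes called higher are red, those called lower blue and the others gray, and the intervals of Mfng and Lfng lie farthest from 0.

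The glycosyltransferases held the largest differences of the pathway lists. Mfng and Lfng encode fringe enzymes, which lengthen the O-linked fucose on Notch receptors and so alter which ligands they answer to. Mfng stood at 66.4, 66.3, 108 and 72.4 normalized counts under ad libitum feeding (mice 2 to 5) and at 6.76, 9.70, 1.76, 5.16 and 4.29 in CR mice 1 to 5. Lfng was at 26.0, 11.7, 59.3 and 25.9 and at 1.93, 0.81, 4.70, 6.19 and 0.86. Neither gene overlapped between the diets, a separation that 16.9% of tested genes showed in either direction.

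Mfng fell by 3.71 on the log2 scale (standard error 0.39, adjusted p = 2.56e-06, limma) and Lfng by 3.04 (standard error 0.61, adjusted p = 0.00183). Both had 10 or more normalized counts only in the 4 ad libitum-fed mice, so they passed the filter only through the diet in which they were high. Being tested and being higher under ad libitum feeding were thus not independent for them. Under CR, Mfng rests on 37 counts in all and Lfng on 24. Mfng passed under all 20 alternatives and Lfng under all 19 in which it was tested. Rfng, the remaining fringe gene, did not pass, at -0.02 on the log2 scale. The tested T cell markers had a median log2 fold change of -3.63, with the sums given beside Notch1, and their part in the fringe results was not tested.

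Of the 6 tested genes of the receptor proteases none passed. Psenen and Ncstn, subunits of the gamma-secretase that frees the intracellular domain, had log2 fold changes of -0.69 (adjusted p = 0.0632, limma) and 0.71 (adjusted p = 0.103), and Furin, which cuts the receptor on its way to the surface, had -0.41. None of the 5 tested genes of the nuclear complex passed. Rbpj was at 10.6 ± 7.99 normalized counts (SD, n = 4) and 19.0 ± 5.79 (SD, n = 5), which is 0.97 on the log2 scale (adjusted p = 0.159, limma). Maml1, a coactivator of the complex, had 0.59, and Snw1, a splicing protein that also binds it, had -0.14.

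Of 12 corepressors, 2 rose and 1 fell. Tle2, a Groucho family protein that Hes repressors recruit, went from 11.1 ± 6.65 normalized counts (SD, n = 4) to 30.2 ± 10.4 (SD, n = 5). All CR mice were above all ad libitum-fed mice, beside the 16.9% of tested genes whose diets did not overlap in either direction. The change was 1.47 on the log2 scale (standard error 0.40, adjusted p = 0.0165, limma), and Tle2 passed in 15 of 19 alternatives. Aes, a short relative of the Groucho proteins, fell by 0.58 (adjusted p = 0.0201), from 474 ± 41.0 (SD, n = 4) to 319 ± 46.1 (SD, n = 5), and passed in 17 of 20 alternatives.

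Of 12 tested genes of trafficking and turnover, 2 rose and none fell. Dtx4, a ubiquitin ligase of the Deltex family, went from 5.61 ± 3.62 normalized counts (SD, n = 4) to 21.2 ± 12.2 (SD, n = 5), or up by 1.75 on the log2 scale (adjusted p = 0.0254, limma). The diets overlapped, as CR mouse 3 lay below ad libitum-fed mouse 5. Dtx4 passed in 12 of 19 alternatives and did not pass at equal depth (adjusted p = 0.192, limma). Epn2, an epsin that serves the uptake of ligands, went from 8.66 ± 6.58 to 21.2 ± 4.03, or up by 1.54 (adjusted p = 0.0451), and passed in 6 of 19 alternatives. Nedd4, a ubiquitin ligase, had 0.75 (adjusted p = 0.0502). Of the 16 pathway genes with a row under the filter, 1 passed in the fit without it. This was Dtx1, another Deltex gene and named here after its values were seen, at 27.8, 21.4, 41.2 and 3.45 under ad libitum feeding (mice 2 to 5) and 0, 5.66, 5.88, 1.03 and 1.72 in CR mice 1 to 5, or -2.63 on the log2 scale (adjusted p = 0.0127, limma without the filter). Its diets overlapped through ad libitum-fed mouse 5.

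The remaining lists held no call. Hes6, a relative that can hinder Hes1, went from 28.8 ± 12.5 normalized counts (SD, n = 4) to 13.4 ± 5.93 (SD, n = 5), which did not pass (adjusted p = 0.118, limma), and Bhlhe40, a helix-loop-helix repressor of the circadian and hypoxic responses, had 0.22. No further ligand passed the filter. Dll4, the Delta-like ligand of vessel tips, had 5 counts in all under ad libitum feeding and 26 under CR, with a log2 fold change of 1.01 (95% interval -0.38 to 2.41, adjusted p = 0.376, limma without the filter).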

How the data were processed

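Sorted mammary cells of 9 mice were analysed, 4 on ad libitum feeding and 5 on CR, with groups taken from the sample titles. According to the submitters' notes and the methods of the study, reads were trimmed with cutadapt, mapped to the mouse genome (mm10), counted as unique molecules over the 3′ ends of genes (the last 1000 bases) with HTSeq and normalized with DESeq2, in versions not given in the sources used here. What the authors deposited is a normalized signal, that is counts divided by a size factor per library, to 2 decimals. All values above 0 (100%) were whole multiples of a single step per library to within 0.0051 normalized counts, which gave back whole counts.

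The planned design named edgeR for counts and limma for normalized values. As the deposited values are normalized, limma 3.58.1 with trend (R 4.3.3) was used on log2(value + 1), with diet as the only term. On the recovered counts, edgeR 4.0.16 (quasi-likelihood) called 457 genes higher and 661 lower, against 544 and 623 with limma. Single values were compared by exact two-sided permutation tests. Libraries were barcoded and pooled, no batch is given, and p-values measure the spread between mice only. Fits were also run on simulated counts in which only well-counted genes were changed, as many up as down. Those runs do not cover members with few counts, and their outcome is not reported here.

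The members and gene lists were chosen with earlier results of these data known. Named were all members, for each pathway list the 2 tested genes with the smallest p and the gene with the highest level, for each called member the 3 most alike genes, and for marker lists those with the highest level, of which some are printed. Dtx1 lies outside this rule. A corepressor is counted but not otherwise reported here. Promoters and gene positions are from RefSeq and GENCODE on GRCm38. Alternatives were other pseudocounts (0.5 and 4), filters (none and 30), tools (edgeR, DESeq2 1.42.0), scalings (library total, upper quartile, the 20 fibroblast markers), equal depth, a block on the mouse number, and each library left out in turn.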

Additional observations from a re-analysis of the deposited data

Results flagged for a closer look

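Each of the 8 members was examined in each diet, 16 groups in all, for a library far from the rest of its group. Chance alone marks about 1 in 20 groups of normally spread values, a rate that need not hold for the members with counts near 0. In 4 groups the extreme library was separated from its nearest neighbour by more than the critical share of the range, which is 0.829 for 4 libraries and 0.710 for 5. Hes1 was at 58.6 normalized counts in ad libitum-fed mouse 5, below the other ad libitum-fed mice (a share of 0.856). Notch2 was at 1.80 in ad libitum-fed mouse 2 and at 0 in the other 3, which rests on 2 counts. Its share of 1 would be the same for any value above 0 in that mouse. Hey1 was at 17.4 (0.841) and Heyl at 15.5 (0.889) in CR mouse 1.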

How the results depend on the processing

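The sign of Hes1 and of Notch1 was kept under all 20 alternatives. Hes1 passed in 19 of 20, losing its call with the fibroblast scaling (0.73). Notch1 passed in 13 of 20, with fold changes of -1.32 to -0.94 over the left-out libraries. Notch3 passed in none of 20 and kept its sign in 15. Of the members under the filter, which were fitted under 17 alternatives, the sign turned in 2 for Dll1 (0.13 without ad libitum-fed mouse 4 and 0.09 without CR mouse 2), in 2 for Hey1 (0.28 and 0.12 without ad libitum-fed mouse 3 or 5) and in 3 for Heyl (0.57 with DESeq2, 0.01 with a pseudocount of 4 and 0.19 without CR mouse 2). The labels do not say whether mice of the same number were paired. The deviations of same-numbered mice correlated at -0.071, -0.016, 0.026 and 0.044, and those of differently numbered mice at -0.106 to 0.136. These correlations cannot settle whether mice were paired by design. With the replicate number as a block, to which CR mouse 1 has no counterpart, Hes1 was at 1.10 and Notch1 at -0.99 (adjusted p = 0.0783, limma).

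The count of pathway genes called higher (4) was 2 with a filter of 30 normalized counts or scaling by library total, 0 with the fibroblast scaling or at equal depth, 1 with the replicate block and 0 to 4 over the left-out libraries. The count called lower (3) was 5 with the fibroblast scaling and 2 to 5 over the left-out libraries. Over the whole table, 93 genes were higher and 971 lower with the fibroblast scaling, and 344 were higher at equal depth, against 544 and 623. Of the called genes 53.4% were lower, against 91.3% with the fibroblast scaling, 65.1% at equal depth and 43.0% with upper-quartile scaling. Over the left-out libraries the difference in log2 ratio ran from -1.57 to -0.75 for Notch1 to Notch3, from 0.999 to 2.01 for Notch2 to Notch3, from 0.85 to 1.93 for Hes1 to Heyl and, without a change of call, from 0.886 to 2.003 for Hes1 to Hey1 (lowest without ad libitum-fed mouse 3), from 1.22 to 2.23 for Jag1 to Dll1, from -2.93 to -2.05 for Notch1 to Notch2 and from -0.52 to 0.33 for Hey1 to Heyl. The 5 members under the filter have at most 18 counts in any library, so that changes of 2-fold in either direction are within the intervals of Dll1, Hey1 and Heyl. Why the settings differ was not tested.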
